A study of Solea senegalensis with 15 samples.

Results

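Retinoic acid is the active form of vitamin A that binds nuclear receptors, and in the vertebrate testis it is best known for bringing germ cells into meiosis. Cells take up retinol through membrane receptors, oxidise it first to retinal and then, with aldehyde dehydrogenases of the Aldh1a class, to retinoic acid. Cellular retinoic acid binding proteins (Crabp) carry the product within the cell, and Cyp26 enzymes break it down. In fish, aldh1a2 is regarded as the main gene of the last synthetic step.

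Retinoic acid genes were taken by gene symbol from the counts of Senegalese sole testis (aldh1a1 to aldh1a3, cyp26a1, cyp26b1, cyp26c1, crabp1, crabp2 and stra6 with their copies), with a minimum of 50 counts in at least 1 of the 15 fish. The rule found 6 of the 28921 genes: aldh1a2 for synthesis, crabp1a, crabp2a and crabp2b for transport of retinoic acid, and stra6 and stra6l for uptake of retinol. All 6 passed the count minimum and were among the 21227 genes tested. No row analysed here carried a cyp26 symbol, so these genes hold no named enzyme of breakdown. Of the genes tested, 39.9% are listed under a bare identifier, and genes of this pathway may be among them.

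The study compared testes of males 2 years old, F1 offspring of wild-caught parents, after weekly intramuscular injection for 6 weeks of recombinant Fsh of the species at 18 µg/kg (rFsh, labelled rssFSH), recombinant Lh at 18 µg/kg (rLh, labelled rssLH) or saline. Each group has 5 fish, with 1 library made from the testis of each fish by a modified SMARTseq2 protocol. The question put to these genes was whether their transcripts differed after each hormone from saline, and between the hormones. Levels are counts per 1e6 assigned reads (CPM) with TMM scaling, and fold changes with their SE come from an edgeR quasi-likelihood fit over all genes and all 3 groups, with p-values adjusted over all genes tested (called at an adjusted p under 0.05).

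Assigned reads, in units of 1e6 (M), ran from 50.7 to 76.2 M after rFsh (median 61.2 M), from 53.2 to 64.5 M after rLh (60.9 M) and from 67.8 to 109.8 M in saline (79.9 M). Testis markers were present: the summed level of 5 tested Sertoli cell genes lay between 1794 and 3228 CPM over all fish and that of 4 Leydig cell genes between 609.8 and 2235 CPM, although the rows of fshr and sycp3 held 0 counts in every fish. Liver and plasma genes summed to at most 9.54 CPM and skeletal muscle genes to at most 4.94 CPM, red blood cell genes to between 4.29 and 54.99 CPM and macrophage genes to between 187.2 and 282.1 CPM. The 7 tested spermatocyte genes (of 8 rows) summed to 785.6 to 1009 CPM after rFsh, 765.7 to 792.9 CPM after rLh and 649.0 to 749.1 CPM in saline, with 6 of the 7 higher on average after each hormone. Leydig cell genes had medians of 1311 CPM after rFsh, 1251 CPM after rLh and 815.5 CPM in saline, with 4 of 4 higher after each hormone. Sertoli cell genes had medians of 2238 CPM after rFsh, 2474 CPM after rLh and 2599 CPM in saline, with 1 of 5 higher after rFsh and 3 of 5 after rLh. The 7 spermatogonial genes had medians of 157.5, 178.5 and 187.4 CPM in that order of groups, with 2 of 7 higher after rFsh and 4 of 7 after rLh. The 9 spermatid rows, 8 of them tested, had medians of 348.2, 330.3 and 327.0 CPM, with 7 of 8 and 5 of 8 tested genes higher. The part of these cell types in the results on retinoic acid genes was not tested, and in whole testis RNA fewer cells of a type and less RNA per cell cannot be told apart.

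After rFsh, edgeR called 0 of the 6 retinoic acid genes against saline, where it called 0.0471% of all genes, and DESeq2 on the same fish also called 0, against 2.93% of all genes. At an unadjusted p under 0.05 there were 3 of 6 (stra6 lower, crabp1a and aldh1a2 higher), while 17.2% of all genes reached it. After rLh, edgeR called 0 of 6 and 0% of all genes, and DESeq2 called 0 of 6 and 0.221% of all genes. Here 2 of 6 reached an unadjusted p under 0.05 (crabp1a higher, crabp2b lower), with 13.2% of all genes. Between rLh and rFsh both tools called 0 of 6, against 0% of all genes in edgeR and 0.636% in DESeq2, and 1 of 6 (stra6, higher after rLh) reached the unadjusted threshold, with 9.91% of all genes. The median log2 fold change over the 6 genes was 0.13 after rFsh and 0.16 after rLh, beside 0.0060 and 0.0087 over all genes. Both comparisons with saline share the same saline fish.

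**Figure D1:**
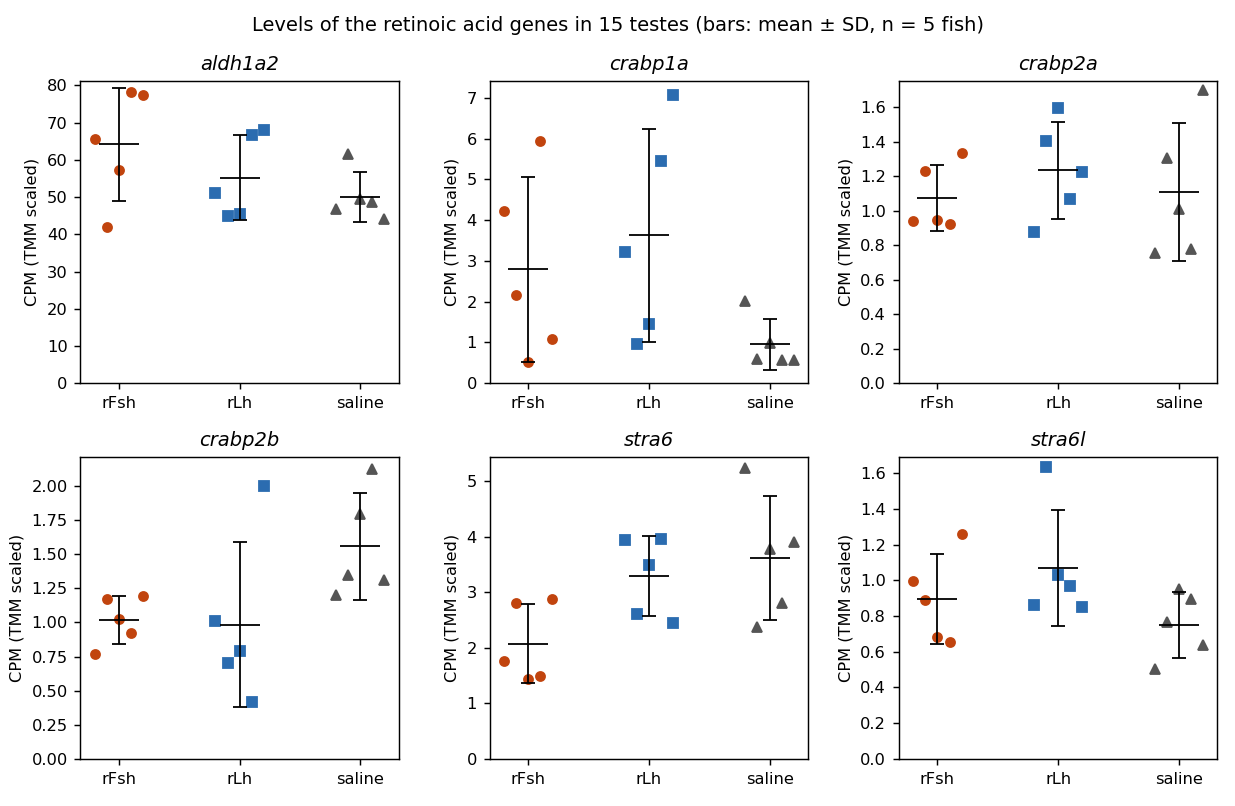
Level of each of the 6 retinoic acid genes in every fish, in CPM with TMM scaling on an axis that starts at 0. Each point is 1 fish, bars give the mean ± SD of 5 fish, and the widest spread within the treated groups, as the ratio of the highest to the lowest fish, is that of crabp1a, from 0.514 to 5.95 CPM after rFsh and from 0.965 to 7.08 CPM after rLh.

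Uptake of retinol came closest to a call, through stra6, the membrane receptor that takes retinol from its plasma carrier. It lies on linkage group 10, 13963525 to 13983078 of build IFAPA_SoseM_1. Its level was 1.76, 2.80, 1.44, 1.49 and 2.88 CPM after rFsh, 3.95, 2.62, 3.49, 3.95 and 2.45 CPM after rLh, and 5.25, 2.38, 3.77, 2.80 and 3.91 CPM in saline. All 5 rFsh fish lay below the saline median, although the groups overlapped because rFsh 62 and rFsh 69 stood above saline 64 and level with or above saline 67. The rLh fish covered the middle of the saline range. The means were 2.08 ± 0.711 CPM after rFsh, 3.29 ± 0.718 CPM after rLh and 3.62 ± 1.11 CPM in saline (SD, n = 5 each).

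For rFsh against saline the log2 fold change of stra6 was -0.82 ± 0.25 (SE), with an unadjusted p of 0.00540 and an adjusted p of 0.161 in edgeR. Over single fish left out it ran from -0.99 without rFsh 69 to -0.65 without saline 63, and the unadjusted p stayed under 0.05 in all 25 alternative settings, with adjusted p from 0.0477 to 0.312. The lowest of these came from DESeq2 over the 12 fish that the study's tables rest on (all but rFsh 62, rLh 68 and saline 68), where stra6 was called at -0.91 ± 0.30, 1 of 6 genes against 5.87% of all genes. A two-sided exact permutation test of log2 CPM, for which 5 fish against 5 cannot go below 0.00794, gave p = 0.0397. For rLh against saline the change was -0.15 ± 0.24 (adjusted p = 0.803 in edgeR). The direct comparison put stra6 higher after rLh than after rFsh by 0.67 ± 0.27 on the log2 scale (unadjusted p = 0.0238, adjusted p = 0.463 in edgeR, exact permutation p = 0.0476), and all 5 rLh fish lay above the rFsh median.

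stra6l, a related receptor gene on linkage group 6 (9958482 to 9966561), had low counts, between 36 and 100 in each fish. Its level was 0.995, 0.889, 0.680, 0.653 and 1.26 CPM after rFsh, 0.862, 1.64, 1.03, 0.968 and 0.849 CPM after rLh, and 0.503, 0.768, 0.951, 0.895 and 0.638 CPM in saline. Every rLh fish was above the saline median, yet 2 of them lay within the saline range. The counting interval of rLh 64, the highest fish, was 1.33 to 1.99 CPM, and that of saline 63, the lowest, 0.371 to 0.666 CPM (95% exact binomial, counting error only). The log2 fold change was 0.28 ± 0.26 after rFsh (adjusted p = 0.606 in edgeR) and 0.51 ± 0.25 after rLh (unadjusted p = 0.0593, adjusted p = 0.397 in edgeR). Without rLh 64 the change after rLh was 0.32. In the rFsh mean stra6 was lower and stra6l higher than in the saline mean, with no call for either in edgeR.

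A second gene that the study's tables match to human STRA6, LOC122758326, has no symbol and so falls outside the rule. It lies on another chromosome, linkage group 21 (864259 to 876900), and is described because its name in those tables is that of stra6. It was seen there in a table of genes that differ between the hormones, so its values are a description. Its level was 0.915, 1.42, 0.713, 0.635 and 1.15 CPM after rFsh, 1.54, 2.09, 1.52, 1.92 and 0.944 CPM after rLh, and 2.32, 1.04, 1.67, 1.19 and 1.30 CPM in saline. Across the 15 fish its log2 CPM followed that of stra6, with Pearson's r of 0.86 and Spearman's rho of 0.81, given with no test because of how this gene was found. Without the 2 fish farthest from the median of stra6 the value of r was 0.74, and for deviations from the group means it was 0.79. How far reads of the 2 genes can be exchanged was not tested, since no sequence was used.

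**Figure D2:**
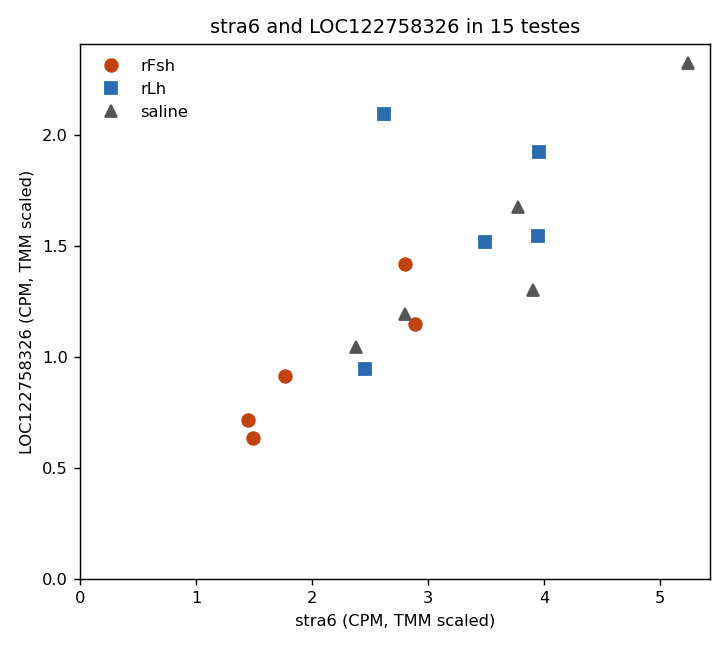
Level of LOC122758326 against that of stra6 in each of the 15 fish, both in CPM with TMM scaling, with symbols for the groups. The points rise together (Pearson's r of 0.86 on the log2 scale), with saline 63 at the upper right at 5.25 CPM of stra6 and 3 rFsh fish at the lower left.

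Synthesis was represented by aldh1a2, the retinaldehyde dehydrogenase, which is annotated on an unplaced sequence (positions 1312 to 19417). It had 2218 to 5405 counts per fish, so counting error was small: the 95% exact binomial interval of the lowest fish, rFsh 62, was 40.2 to 43.8 CPM. Its level was 65.5, 42.0, 57.3, 78.3 and 77.5 CPM after rFsh, 51.1, 44.9, 45.4, 66.7 and 67.98 CPM after rLh, and 46.8, 61.6, 49.6, 48.7 and 44.0 CPM in saline. Of the rFsh fish 4 lay above the saline median and rFsh 62 lay below every other fish of the series. The rLh fish fell into 3 within the saline range and 2 above it.

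The means of aldh1a2 were 64.1 ± 15.2 CPM after rFsh, 55.2 ± 11.3 CPM after rLh and 50.1 ± 6.74 CPM in saline. The log2 fold change after rFsh was 0.36 ± 0.17 (unadjusted p = 0.0472, adjusted p = 0.284 in edgeR; exact permutation p = 0.119), that is 1.28-fold. It was 0.48 without rFsh 62 and 0.28 without rFsh 68, and its unadjusted p was under 0.05 in 13 of 25 settings. After rLh it was 0.14 ± 0.17 (adjusted p = 0.728 in edgeR). The difference between rLh and rFsh was -0.22 ± 0.17 over all 15 fish (unadjusted p = 0.209, adjusted p = 0.661 in edgeR) and -0.41 ± 0.15 over the 12 fish (adjusted p = 0.217). Its unadjusted p was under 0.05 in 3 of 25 settings.

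**Figure D3:**
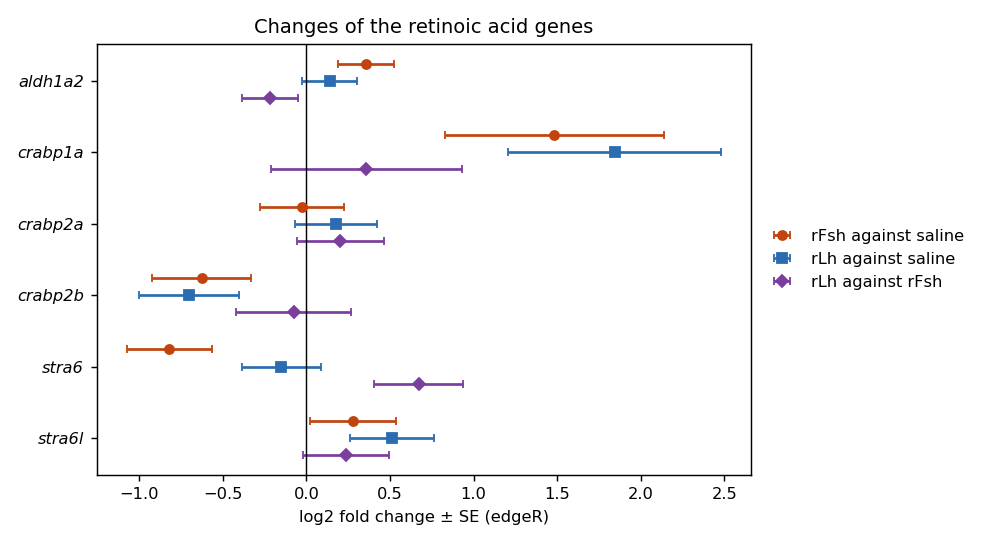
Log2 fold changes ± SE of the 6 genes in edgeR: each hormone is set against saline, and rLh against rFsh. The values for crabp1a have the widest error bars (1.48 ± 0.66 and 1.84 ± 0.64 against saline), and stra6 is at -0.82 for rFsh and -0.15 for rLh.

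Among the carriers crabp1a had the largest fold changes and by far the largest spread between fish. Crabp1 binds retinoic acid in the cytoplasm and in mammals is known for handing it to the enzymes that break it down. The gene lies on linkage group 10 (9578844 to 9590762). Its level was 4.23, 2.18, 0.514, 5.95 and 1.09 CPM after rFsh, 3.22, 0.965, 1.44, 5.46 and 7.08 CPM after rLh, and 2.02, 0.594, 0.998, 0.571 and 0.576 CPM in saline. Each treated group held fish within the saline range beside fish well above it, rFsh 64 lay just below it, and saline 63 stood clear of the other saline fish. The highest fish exceeded the lowest by 11.6 times after rFsh, 7.34 times after rLh and 3.54 times in saline. Counting error is far smaller than this, with 95% exact binomial intervals of 0.349 to 0.730 CPM in rFsh 64 and 6.38 to 7.83 CPM in rLh 68, the ends of the range.

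The SD of crabp1a within groups was 1.16 on the log2 scale, above 98.9% of the genes tested, whose median SD was 0.24. The other 5 genes had SDs from 0.29 (aldh1a2) to 0.52 (crabp2b). For crabp1a the log2 fold change was 1.48 ± 0.66 after rFsh (unadjusted p = 0.0386, adjusted p = 0.266 in edgeR; exact permutation p = 0.143) and 1.84 ± 0.64 after rLh (unadjusted p = 0.0108, adjusted p = 0.344 in edgeR; exact permutation p = 0.0397). After rLh all 5 fish were above the saline median, and after rFsh 4 were. With single fish left out, the change after rLh ran from 1.48 without rLh 68 to 2.33 without saline 63. Its unadjusted p was under 0.05 in 24 of 25 settings. The exception was edgeR over the 12 fish, where the change was 1.34. The change after rFsh ran from 1.05 without rFsh 68 to 1.97 without saline 63, with the unadjusted p under 0.05 in 17 of 25 settings. The hormones differed by 0.36 ± 0.57 (rLh over rFsh, adjusted p = 0.849 in edgeR), and over the 12 fish the sign turned to -0.069.

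Part of crabp1a shares positions with LOC122776284, an annotated long non-coding RNA (9587732 to 9597738 of the same linkage group). By its defaults RSubread counts without regard to strand and assigns no read that overlaps a pair of genes, so reads on exons that both share would count for neither, and the level of crabp1a is uncertain to that extent. LOC122776284 had 12 to 56 counts per fish, at 0.360 ± 0.171 CPM after rFsh, 0.277 ± 0.0984 CPM after rLh and 0.485 ± 0.0634 CPM in saline. Its group means ran in the order opposite to those of crabp1a. From fish to fish, Pearson's r of the pair on the log2 scale was -0.40 over 15 fish. For deviations from the group means it was -0.061, so the opposite order was hardly seen within groups. LOC122776284 met the count minimum only in saline (at most 56 counts, against 36 after rFsh and 28 after rLh), which favours a higher saline level. The minimum is set on raw counts, and the saline libraries had the highest median depth. rFsh 64, with 36 counts, had 0.597 CPM, above the highest saline fish at 0.544 CPM. Whether reads were lost or exchanged between these genes was not tested.

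crabp2a and crabp2b are copies of Crabp2, which in mammals delivers retinoic acid to its nuclear receptor. On linkage group 20 (6470673 to 6474800), crabp2b had 26 to 189 counts per fish. Its level was 0.769, 1.17, 1.03, 0.926 and 1.19 CPM after rFsh, 1.01, 0.703, 0.789, 0.420 and 2.001 CPM after rLh, and 1.20, 1.35, 1.80, 2.13 and 1.31 CPM in saline. Every rFsh fish lay below every saline fish, although rFsh 69 and saline 63 were separated by little. This pattern was found downward in 0.843% of all genes tested, a share counted only in the direction that crabp2b showed. No other retinoic acid gene had groups apart in any comparison, nor had crabp2b in the other comparisons. Of the rLh fish 4 lay below all saline fish, whereas rLh 68 was the second highest of the 15.

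The means of crabp2b were 1.02 ± 0.176 CPM after rFsh, 0.985 ± 0.606 CPM after rLh and 1.56 ± 0.391 CPM in saline. In edgeR the log2 fold change after rFsh was -0.63 ± 0.29 (unadjusted p = 0.0501, adjusted p = 0.291) and that after rLh -0.70 ± 0.30 (unadjusted p = 0.0332, adjusted p = 0.357). Exact permutation tests gave p = 0.00794 for rFsh, the smallest this design allows, and p = 0.0714 for rLh. Any full separation of the groups gives that smallest value, so it restates the lack of overlap and adds no further support. The permutation p-values were not adjusted over the genes and comparisons. The unadjusted p in the fits was under 0.05 in 13 of 25 settings for rFsh and in 17 of 25 for rLh. The value after rLh moved with single fish: it was -0.51 without rLh 67, the lowest of its group, and -1.09 without rLh 68, the highest. Over the 12 fish, where rLh 68 is absent, it was -1.14 ± 0.28 (unadjusted p = 0.00134, adjusted p = 0.0594 in edgeR). DESeq2 on the 12 fish gave -1.15 (unadjusted p = 0.000235) and, through its filter on low means, no adjusted p. Between rLh and rFsh the difference was -0.08 ± 0.34 (adjusted p = 0.950 in edgeR).

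crabp2a, on linkage group 9 (19774063 to 19782374), had 51 to 136 counts per fish and the smallest differences from saline after rFsh. Its level was 0.942, 1.23, 0.945, 0.926 and 1.33 CPM after rFsh, 0.879, 1.41, 1.59, 1.07 and 1.23 CPM after rLh, and 0.754, 1.30, 1.01, 0.778 and 1.70 CPM in saline. The saline fish spanned the whole range of the rFsh fish and the rLh fish, with saline 68 highest and saline 63 lowest of all 15. The log2 fold change was -0.02 ± 0.25 after rFsh and 0.18 ± 0.25 after rLh (adjusted p = 0.972 and 0.766 in edgeR). After rFsh the values of the Crabp2 copies were -0.63 for crabp2b and -0.02 for crabp2a, and the difference between the copies was not tested.

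**Figure D4:**
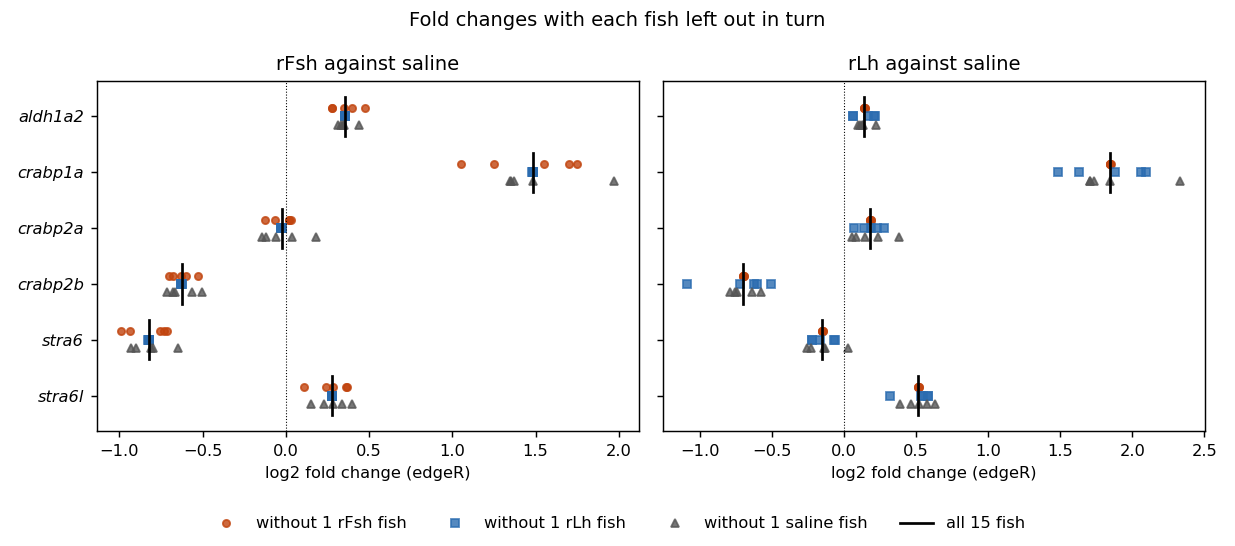
Log2 fold change of each gene against saline in edgeR, for all 15 fish (black line) and with each fish left out in turn (points, by the group of the fish left out). stra6 after rFsh stays between -0.99 and -0.65, while crabp1a after rLh spans 1.48 to 2.33.

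No pair of the 6 genes passed a test of correlation from fish to fish. Over 15 pairs of genes and 15 fish, the largest correlation in size was that of aldh1a2 with stra6, with Pearson's r of -0.50 (permutation p = 0.0552, adjusted over the pairs 0.676) and Spearman's rho of -0.34 (permutation p = 0.211, adjusted 0.669). Without the 2 fish farthest from the median of aldh1a2 its r was -0.43, and for deviations from the group means it was -0.31. The next, aldh1a2 with crabp1a, had r of 0.46 (permutation p = 0.0902, adjusted 0.676) and rho of 0.46 (permutation p = 0.0822, adjusted 0.669).

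Among 12741 tested genes with a symbol, log2 CPM over the 15 fish was compared with each of 4 retinoic acid genes by Pearson's r. The highest of so many values is large by selection alone, to an extent that was not computed. Those most like each gene were listed as a description of ranks with no test. For aldh1a2 these were synpo2b (0.89), an actin-binding protein gene, camk1da (0.85), a calmodulin-dependent kinase gene, and thbs2a (0.83), which encodes a thrombospondin of the extracellular matrix. For stra6 they were rasa1a (0.88), a Ras GTPase activator gene, creb3l4 (0.87), a membrane-bound transcription factor gene, and ankrd54 (0.86). For crabp1a they were sema4f (0.92), a semaphorin gene, ticam1 (0.83), an adaptor of innate immune receptors, and clic1 (0.83), a chloride channel protein gene. For crabp2b they were ulk3 (0.90), a kinase gene, cpped1 (0.89), a phosphatase gene, and mych (0.85), of the Myc family.

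Breakdown was followed through a gene without a symbol, and whether other such rows hold cyp26 genes was not tested. The gene was LOC122762647, which the study's tables match to human CYP26C1, one of the enzymes that hydroxylate retinoic acid. It carries no symbol, lies on an unplaced sequence (6642 to 13225) and was seen in a table of genes that differ between rLh and saline, so its values are a description. They were 6.98, 4.05, 7.91, 7.01 and 9.54 CPM after rFsh, 6.63, 4.14, 6.02, 4.39 and 5.49 CPM after rLh, and 7.30, 9.20, 6.30, 11.2 and 6.86 CPM in saline. Every rLh fish was below the saline median, with means of 5.34 ± 1.06 CPM after rLh and 8.17 ± 2.01 CPM in saline, and only rLh 63 lay within the saline range. The rFsh fish, at 7.10 ± 1.996 CPM, overlapped with both other groups.

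The wider retinoid pathway was read from a list of carriers, retinol and carotenoid enzymes, receptors and known retinoic acid targets, of which 33 rows are reported, 26 of them tested. edgeR called 0 of 26 after either hormone, beside 0.0471% of all genes after rFsh and 0% after rLh. DESeq2 also called 0 of 26 after either, beside 2.93% and 0.221% of all genes. At an unadjusted p under 0.05 in edgeR there was 1 of 26 after rFsh (tgm2b, higher), beside 17.2% of all genes. After rLh there were 0 of 26, beside 13.2% of all genes. DESeq2 over the 12 fish called 1 of 26 after rLh (nr2f1a), beside 10.6% of all genes, and 0 of 26 after rFsh, beside 5.87% of all genes. It gave no adjusted p after rLh for 9 of the 26. The median log2 fold change over these genes was 0.022 after rFsh and 0.045 after rLh. The 7 rows not tested (rbp2b, rlbp1a, rbp4, rbp4l, lrata, rdh5 and hoxa1a) had at most 42 counts in any fish. Among them rbp4, the plasma carrier of retinol, had 0 in all 15, which by counting error alone allows up to 3 counts in each. The rows of fshr and sycp3 also held 0 in every fish, so a row at 0 need not mean an absent transcript.

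Of the known targets, tgm2b, a transglutaminase gene, was at 2.22 ± 0.926 CPM after rFsh, 1.45 ± 0.587 CPM after rLh and 1.25 ± 0.425 CPM in saline, a log2 fold change after rFsh of 0.79 ± 0.31 (unadjusted p = 0.0229, adjusted p = 0.227 in edgeR) and of 0.53 without rFsh 68. The most abundant target by counts, nr2f1a, an orphan nuclear receptor gene, had log2 fold changes of 0.14 ± 0.16 after rFsh and 0.31 ± 0.16 after rLh with no call in edgeR (adjusted p = 0.663 and 0.403). DESeq2 over the 12 fish called it after rLh, at 0.48 ± 0.17 (adjusted p = 0.0439, the lowest of 25 settings, the highest being 0.702), and without rLh 67 the edgeR value was 0.19. Of each receptor class the most abundant gene by counts was looked at, and neither was called. The retinoic acid receptor gene rarga stood at 42.0 ± 4.18 CPM after rFsh, 40.1 ± 3.96 CPM after rLh and 42.4 ± 1.74 CPM in saline. The retinoid X receptor gene rxrgb stood at 5.80 ± 0.778, 7.20 ± 0.782 and 6.34 ± 1.41 CPM in the same order of groups. For the retinol dehydrogenase gene dhrs9 the values were 56.5 ± 4.66 CPM after rFsh, 59.1 ± 6.21 CPM after rLh and 57.2 ± 6.88 CPM in saline. The carotenoid oxygenase gene bco1 had 7.23 ± 2.54, 5.19 ± 1.29 and 6.85 ± 3.54 CPM in that order, and the carrier gene rbp5 had 23.2 ± 4.36, 21.7 ± 2.39 and 21.3 ± 2.82 CPM. None of these 5 genes had an adjusted p under 0.05 in edgeR.

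By role, 4 of 5 tested carriers had a log2 fold change above 0 after rFsh and 4 of 5 after rLh, while of 7 retinol dehydrogenases and retinal reductases 3 had one above 0 after rFsh and 5 after rLh. Both retinoic acid receptor genes had fitted log2 fold changes below 0 after either hormone, although that of rarga after rFsh lay between -0.049 and 0.041 when 1 fish was omitted. Of 8 tested targets 6 had values above 0 after rFsh and 6 after rLh. The list also held stra8, meiosin, meioc and rec8, which are linked to meiosis, but none of them is among the rows reported. The signs of the targets therefore do not read the meiotic action of retinoic acid. These counts of signs were not tested or set beside the share of all genes above 0. The carrier gene rbp7b met the count minimum only in rFsh 69 (61 counts), which favours a value above 0 after rFsh. The target gene hoxb1a met it only in saline 63 (51 counts), which favours values below 0. Of the 5 carriers 0 had an unadjusted p under 0.05 against saline in edgeR.

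**Figure D5:**
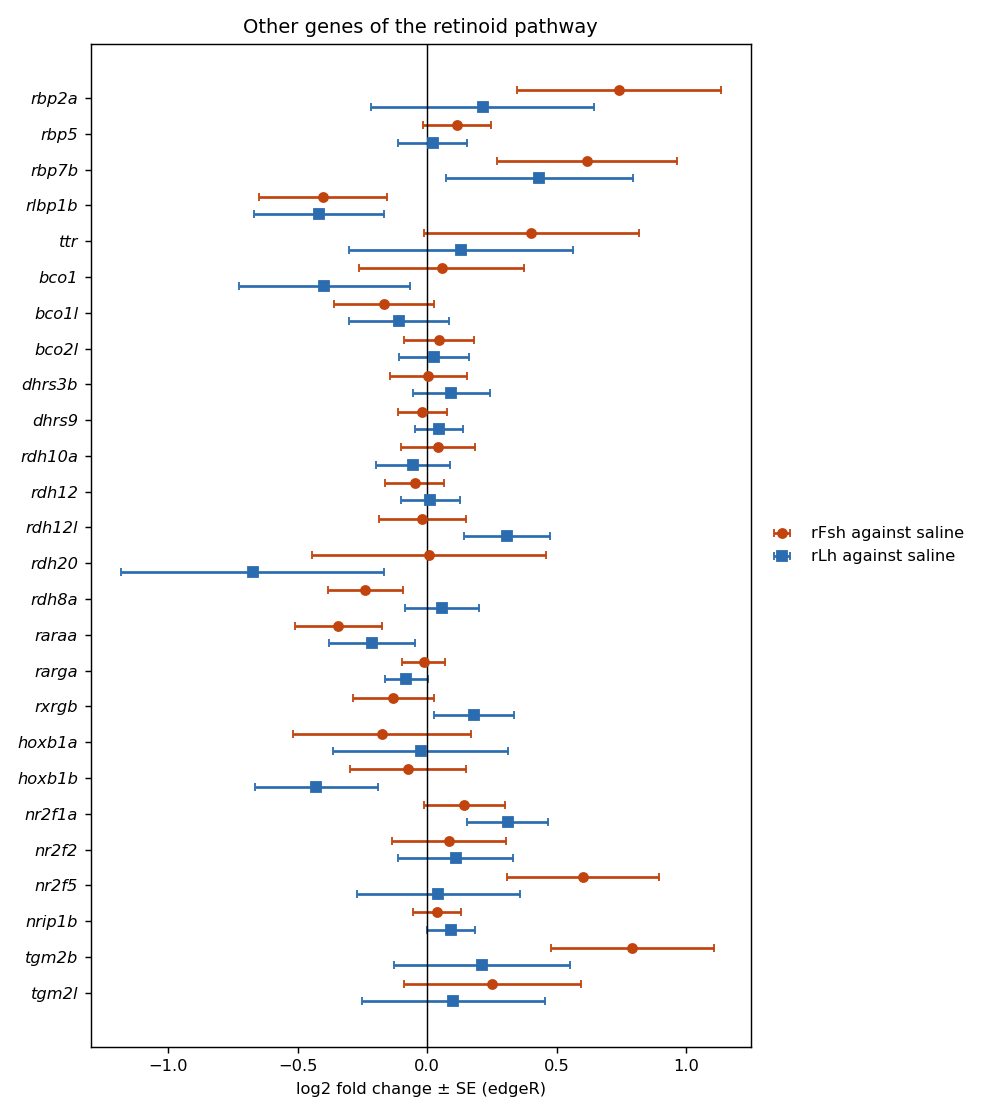
Log2 fold changes ± SE against saline of 26 tested genes of the wider retinoid pathway, ordered by role from carriers at the top to known targets at the bottom. The target gene tgm2b is at 0.79 after rFsh and 0.21 after rLh, and the receptor gene rarga lies at -0.013 and -0.081.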

How the data were processed

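Testis RNA of 15 fish was sequenced, 5 per group, in pairs of 100 bp. The deposited values are counts, whole reads per annotated gene with no normalisation: the authors trimmed and filtered reads with Cutadapt 3.4, aligned them to the reference of the species with Subread 2.0.1 and assigned them to genes with RSubread, its defaults kept. No molecular identifiers were read, so PCR copies count as reads.

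Genes needed 50 counts in at least 1 fish. The main test was that of edgeR 4.0.16 under R 4.3.3 (TMM factors, 1 mean per group, Benjamini-Hochberg adjustment over all genes tested, threshold 0.05) and, as an alternative, DESeq2 1.42.0, after tests on simulated data. Log2 CPM used a prior count of 2, exact permutation tests were two-sided, and correlations used 100000 permutations (Python 3.11.15, scipy 1.17.1). Whether the fish of a group came from separate tanks is not given in the sources used here.

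All 6 genes found by symbol are named. Of the pathway list, genes at an unadjusted p under 0.05 against saline and the most abundant of each role are named, and 1 gene of that list is not reported here. LOC122758326, LOC122762647 and LOC122776284 were named outside this rule after values were seen. The genes and lists were chosen with earlier results of these data known. Gene positions and names are those of RefSeq, build IFAPA_SoseM_1 (26916 of 28921 rows matched by symbol). No transcript length or sequence was used, so levels are not compared between genes, and a planned ratio of synthesis to breakdown and a planned search of promoters were not made. Alternatives were other scaling, filters and tools, robust estimation, a block for the fish number, only the 2 groups compared, the 12 fish of the study's tables, and each fish left out in turn, 25 settings in all. Among these, leaving out a fish of the group outside a comparison bears on it only through the scaling, the count minimum and the shared estimate of spread. DESeq2 over the 12 fish was added after the data were seen.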

Additional observations from a re-analysis of the deposited data

Results flagged for a closer look

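In 5 cases among 48 groups of 5 fish (16 genes in 3 groups), 1 fish stood apart, by a gap to the nearest other fish of over 0.71 of the range of its group. This is Dixon's cut-off, which flags about 1 in 20 groups of 5 normally distributed values. That rate need not hold here, because CPM were not put on the log scale and the genes share the same fish. stra6l was at 1.64 CPM in rLh 64, where the other rLh fish had 0.849 to 1.03 CPM. tgm2b was at 3.81 CPM in rFsh 68, above the other rFsh fish at 1.39 to 2.07 CPM. For nr2f1a, rLh 67 had 91.2 CPM and the other rLh fish 58.3 to 67.7 CPM. In saline 66 rarga was at 39.3 CPM, below the other saline fish, which lay between 43.1 and 43.4 CPM. LOC122776284 was at 0.452 CPM in rLh 67, where the other rLh fish had 0.227 to 0.249 CPM, on 12 to 28 counts per fish.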

How the results depend on the processing

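The count of the 6 retinoic acid genes called was 0 in each comparison and in each setting with 1 exception: DESeq2 over the 12 fish, a setting added after the data were seen, called 1 (stra6) for rFsh against saline. For rLh against saline the same setting gave no adjusted p for 3 of the 6 (crabp2a, crabp2b and stra6l), so its 0 covers the other 3. All genes called for rFsh against saline were 10 in edgeR over 15 fish, 622 in DESeq2, 9 and 1242 over the 12 fish in edgeR and DESeq2, 5, 6, 4 and 3 with DESeq2 size factors, upper quartile factors, edgeR's own filter and only the 2 groups compared, and 1 to 998 with single fish left out (998 without rFsh 69, 633 without saline 68). For rLh against saline they were 0 in edgeR, 47 in DESeq2, 2237 in DESeq2 over the 12 fish and 0 to 2 with single fish left out. For rLh against rFsh they were 0, 135, 675 and 0 to 20, and 3 in edgeR over the 12 fish.

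Signs turned for values near 0 and for some farther from it. The latter were crabp1a in rLh against rFsh (0.36 in the main fit) and, with a replicate block, stra6l after rFsh (0.28 in the main fit). Over the 12 fish crabp2a after rFsh was 0.14 in edgeR and 0.11 in DESeq2, dhrs9 after rFsh 0.0089 and 0.0090, and crabp1a in rLh against rFsh -0.069 and -0.093. With single fish left out, crabp2a after rFsh ran from -0.14 to 0.18, bco1 from -0.14 to 0.34, dhrs9 from -0.074 to 0.041 and rarga from -0.049 to 0.041. After rLh, stra6 ran from -0.26 to 0.025, rbp5 from -0.036 to 0.11 and dhrs9 from -0.014 to 0.11, and crabp2b in rLh against rFsh from -0.46 to 0.12.

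Fish share numbers across groups, and no source says that a number marks a tank or family. Deviations of same-numbered fish correlated at -0.25 to 0.48. Fish of different numbers were not set beside them, so these values cannot tell whether the numbers pair the fish. In the main fit the fish were treated as unpaired. With the number as a replicate block, all genes called were 28, 2 and 12 in the order of comparisons above, 0 of the 6 genes was called, and signs turned for stra6l (-0.26) and dhrs9 (0.17) after rFsh and for crabp2b (0.015) and dhrs9 (-0.12) in rLh against rFsh. The numbers 61, 62 and 69 occur only in the rFsh group. The block terms therefore absorb these fish, and with the block the comparisons that involve rFsh rest on rFsh 64 and rFsh 68. The part of this in the turned signs was not tested. At 26 to 189 counts per fish for crabp2a, crabp2b and stra6l, counting error adds to the spread between fish.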
